A study of Mus musculus with 2 samples.

Results

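Interferons are signal proteins that make cells switch on a set of antiviral and immune genes, and this account follows 45 such interferon-stimulated genes, chosen by name, in immune cells of mouse brown adipose tissue (BAT). Of the 45 genes, 43 were matched by symbol in the deposited counts, where 18519 genes had a count in the cells kept, and 40 had at least 200 counted molecules in the cells kept. Mx1 and Mx2 had no matching symbol and were not analysed here. A core list holds 25 of the 45 genes that are induced chiefly by type I interferon, of which 23 were matched.

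CD45+ cells (leukocytes) were sorted from BAT and captured as single cells in 1 library per group, and each molecule counted was told apart by a molecular barcode (a unique molecular identifier, UMI). Both groups are male AdipoQ-CreERT2 ATGLfl/fl mice of the C57Bl/6 strain, so the controls carry the same Cre and floxed alleles and received injections of 200 uL vehicle on the same schedule. The Adipo Δ/Δ group received 10 mg/ml tamoxifen in 200 uL every 2 days for 1 week, followed in both groups by 2 weeks of rest. The AdipoQ promoter limits the deletion of ATGL (gene Pnpla2), which releases fatty acids from stored fat, to adipocytes. The labels give an age of 16 weeks for both groups, which differs from the age in the study's legends, and the number of mice per library is not stated. Tamoxifen itself and the deletion cannot be told apart in this design.

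Type I interferons (alpha and beta) bind a receptor found on nearly all cells, and the kinases Jak1 and Tyk2 then activate Stat2, which joins Irf9 to bind interferon-stimulated response elements (ISREs) in DNA. Interferon gamma, made by T cells and NK cells, acts through a different DNA element (GAS) and favours genes such as Irf1 and the guanylate-binding proteins. The products of these genes sense foreign nucleic acid, block viral entry and translation, and tune the interferon signal itself.

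After filtering, 2279 control cells held 10753113 UMIs (median 3678 per cell) and 2016 Adipo Δ/Δ cells held 11316418 (median 3942). The libraries shared 4 cell barcodes. The gene behind CD45, Ptprc, was detected in 80.4% of cells in each library. Pnpla2 was at 37.1 and 42.2 CPM (the UMIs of a gene scaled to the summed UMIs of the cells) over all cells, and since its deletion is limited to adipocytes, its level in CD45+ cells does not check the deletion. In neutrophils Pnpla2 was at 49.7 CPM in the control and 119 CPM in Adipo Δ/Δ (ratio 2.40, 1.64 to 3.53). Its ratio in the other classes compared lay between 1.01 and 1.24. Cells of both libraries were clustered jointly with interferon genes left out of the features, and 9 cell classes are compared. Class names stand for clusters that resemble a cell type by marker genes (for example, S100a8 and S100a9 for neutrophils), and the clusters could still be led by interferon genes that cells of that kind share: Ifi205 led the intermediate monocyte cluster, and Ifitm3 was among the leading genes of the Ly6C-high monocyte cluster led by Plac8.

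Below, levels are CPM of the summed UMIs of a class, with the control given before Adipo Δ/Δ. Parentheses hold the ratio of Adipo Δ/Δ over control and its exact 95% interval, which covers counting error only. With 1 library per group no difference could be tested between mice. The median gene of a class, taken over genes with at least 50 UMIs in each library, may itself differ between the libraries. Where this shift is over 0.1 on the log2 scale, the ratio relative to the median gene is added for members and their sums as the relative ratio. It was 0.30 in neutrophils, 0.21 in T cells, 0.12 in B cells and 0.11 in Ly6C-low monocytes.

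The interferon-stimulated genes were not spread evenly over the leukocytes of BAT. In the control library their summed level was highest in Ly6C-high monocytes (6659 CPM) and intermediate monocytes (6388 CPM), and lowest in B cells (925 CPM) among the 9 classes. Neutrophils stood at 2933 CPM in the control and T cells at 1186 CPM. Most of the monocyte sum came from Ifitm3, a membrane protein that blocks fusion of viruses with the cell, at 4071 CPM in control Ly6C-high monocytes and 29.9 CPM in control NK cells. Without Ifitm3 and Bst2, control Ly6C-high monocytes stood at 2395 CPM, intermediate monocytes at 2439.9 CPM and neutrophils at 1817 CPM.

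Which class held the highest level differed by gene. In the control library, Ly6C-high monocytes held the highest level of 11 of the 43 genes, neutrophils of 10, intermediate monocytes of 9 and NK cells of 5. In the Adipo Δ/Δ library, neutrophils held the highest level of 15 genes, intermediate monocytes of 14 and Ly6C-high monocytes of 7. Isg15 was highest in intermediate monocytes in the control (181 CPM) and in neutrophils in Adipo Δ/Δ (472 CPM). Rsad2, Oas2, Oas3, Oasl1, Oasl2, Rtp4 and Trim30a were highest in neutrophils in both libraries. In both libraries Gbp4 and Gbp7 were highest in NK cells, Igtp and Iigp1 in T cells and Irgm1 in Ly6C-high monocytes, while for Gbp2, Gbp3, Gbp5 and Ifi47 the class with the highest level differed between the libraries. B cells held the highest level of 0 genes in each library.

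**Figure D1:**
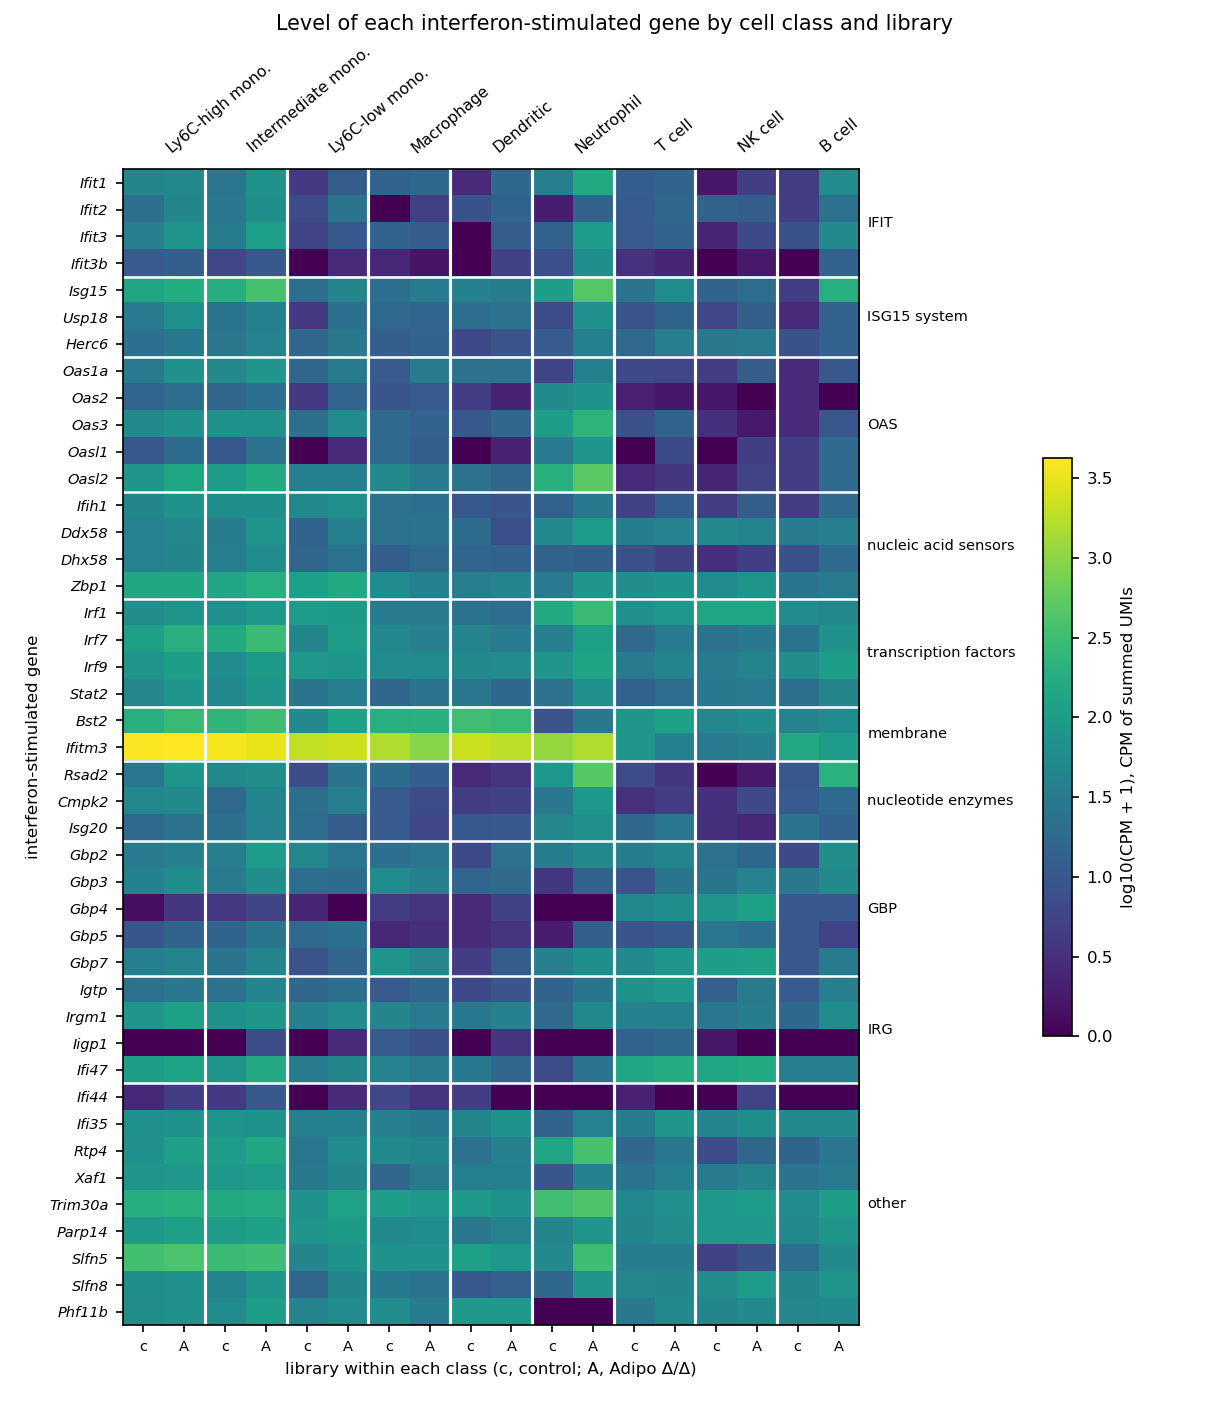
Level of each of the 43 matched interferon-stimulated genes (vertical axis, ordered by role) in 9 cell classes (horizontal axis, control and Adipo Δ/Δ side by side). Color shows log10 of CPM + 1 from summed UMIs.

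Neutrophils of the Adipo Δ/Δ library carried about 2 times the summed level of the interferon-stimulated genes found in control neutrophils, and the core genes differed more than the rest. The sum of all members was 2933 and 6393 CPM (ratio 2.18, 2.08 to 2.29), with a relative ratio of 1.77. Core genes summed to 960.4 and 3107 CPM (ratio 3.23, 2.99 to 3.5), with a relative ratio of 2.62. The cells were 314 control and 173 Adipo Δ/Δ neutrophils. Of the 35 members with at least 20 UMIs in neutrophils, 29 were called higher in Adipo Δ/Δ (a fold of at least 1.5) and 0 lower, beside 27.3% and 5.28% of 4871 genes measured the same way. The median member had a ratio of 2.76, against 1.22 for the median of all genes. After scaling to the median gene, 25 members were higher and 0 lower, beside 14% and 11.8% of all genes.

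Monocytes also had higher sums in Adipo Δ/Δ, again with a larger ratio for the core genes than for the full list. The members summed to 6659 and 7726 CPM (ratio 1.16, 1.13 to 1.19) in Ly6C-high monocytes (346 and 158 cells) and the core to 1153 and 1673 CPM (ratio 1.45, 1.37 to 1.54). In intermediate monocytes (177 and 113 cells), which lie between the Ly6C-high and Ly6C-low types, the members summed to 6388 and 7239.6 CPM (ratio 1.13, 1.09 to 1.18) and the core to 1299 and 2179.8 CPM (ratio 1.68, 1.56 to 1.81). The Ly6C-low monocytes (234 and 220 cells), which patrol vessels, had 3133 and 4003 CPM (ratio 1.28, 1.2 to 1.36) for the members (relative ratio 1.19) and 478 and 874 CPM (ratio 1.83, 1.58 to 2.11) for the core (relative ratio 1.7). Of 40 measured members in Ly6C-high monocytes, 13 were higher and 0 lower, beside 11.6% and 6.21% of all genes. In intermediate monocytes 23 of 39 were higher and 0 lower, beside 14% and 11.6% of all genes. Among Ly6C-low monocytes 14 of 30 were higher and 1 lower (Gbp2), beside 14.5% and 6.77%.

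The sums in macrophages and dendritic cells did not share this pattern. In macrophages (156 and 550 cells) the members summed to 2928 and 2186 CPM (ratio 0.747, 0.709 to 0.787) and the core to 497 and 448 CPM (ratio 0.902, 0.797 to 1.02). There, 3 of 38 members were higher and 8 lower, beside 20.4% and 12.2% of all genes. Dendritic cells (89 and 114 cells) had 3377 and 3022 CPM (ratio 0.895, 0.842 to 0.952) for the members and 398 and 431 CPM (ratio 1.08, 0.911 to 1.29) for the core. Of 22 measured members there, 4 were higher and 2 lower, beside 18% and 7.48% of all genes, so the share of higher members is close to that of all genes. Without Ifitm3 and Bst2 the sum in dendritic cells was 884 and 931 CPM (ratio 1.05, 0.937 to 1.18), which reverses its direction.

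Lymphocytes had low levels with ratios above 1. T cells (396 and 276 cells) had 1186 and 1587 CPM (ratio 1.34, 1.26 to 1.42) for the members (relative ratio 1.16) and 293 and 452 CPM (ratio 1.55, 1.37 to 1.74) for the core (relative ratio 1.34). In T cells 15 of 34 members were higher and 1 lower, beside 18.6% and 5.44% of all genes, and 9 and 1 after scaling to the median gene, beside 10.3% and 9.92%. NK cells (208 and 175 cells) had 1267 and 1574 CPM (ratio 1.24, 1.17 to 1.32) for the members and 286 and 379 CPM (ratio 1.32, 1.16 to 1.51) for the core. In NK cells 8 of 28 were higher and 0 lower, beside 10.3% and 4.49% of all genes, and 6 and 1 after scaling to the median gene, beside 8.13% and 5.68%. B cells (262 and 91 cells) had 925 and 1907 CPM (ratio 2.06, 1.81 to 2.34) for the members (relative ratio 1.90), of which 10 of 20 were higher and 1 lower, beside 17.9% and 10.3% of all genes. Without the cell of highest core count in each library the B cell member ratio was 1.19, as described with the B cells. Differences between classes were not tested.

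**Figure D2:**
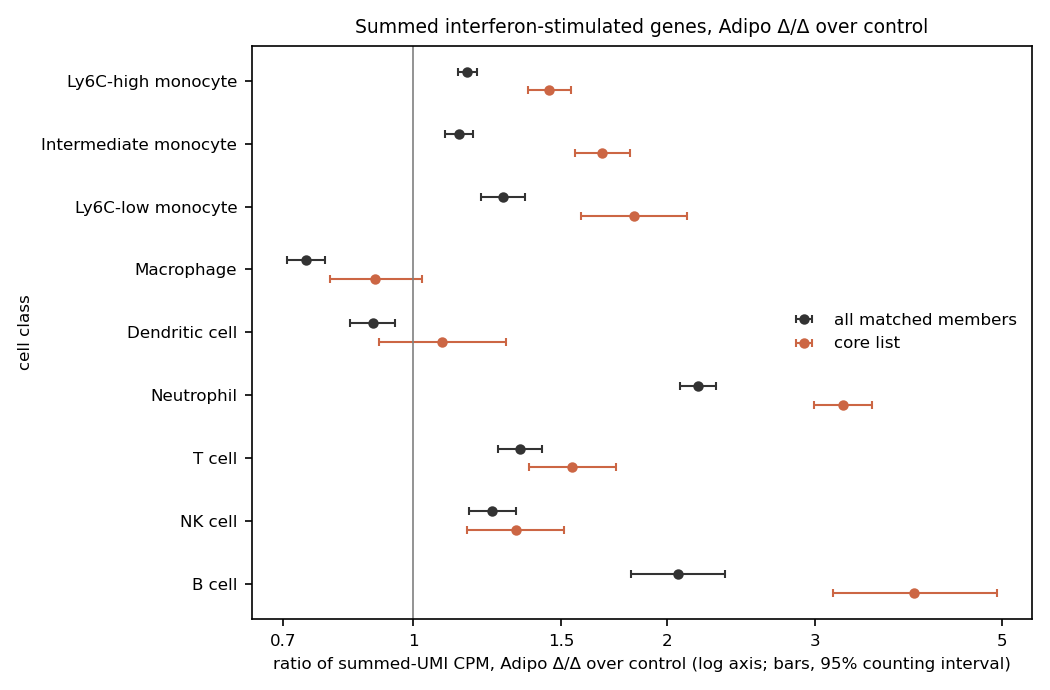
Ratio of summed CPM, Adipo Δ/Δ over control (horizontal, log axis), in 9 cell classes (vertical axis) for all matched members and for the core list. Bars are 95% intervals for counting error, and neutrophils stand at 2.18 and 3.23.

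Over all kept cells together the members summed to 3434 and 3138 CPM (ratio 0.914, 0.90 to 0.927) and the core to 678 and 807 CPM (ratio 1.19, 1.15 to 1.23). These pooled values mix the classes, whose shares differ: Ly6C-high monocytes supplied 43.9% of all member UMIs in the control and 24.3% in Adipo Δ/Δ, and macrophages 4.79% and 22.3%. Neutrophils supplied 14.1% of core UMIs in the control and 18.0% in Adipo Δ/Δ, while their share of all UMIs was 9.92% and 4.66%. Ifitm3 was at 1739 and 1244 CPM over all cells (ratio 0.715, 0.70 to 0.731), although its ratio was above 1 in neutrophils and in Ly6C-low monocytes.

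The members are described next by role, with neutrophils first because they showed the largest difference among classes of over 100 cells in each library. Ifit proteins bind foreign RNA and halt its translation. Their 4 genes lie side by side on chromosome 19 within 99.3 kb (GENCODE M21 on GRCm38). In neutrophils they summed to 55.3 and 329.8 CPM (ratio 5.96, 4.41 to 8.15, relative ratio 4.84), and 3 of the 3 measured genes were higher, beside 27.3% of all neutrophil genes. Ifit1, which binds RNA whose cap lacks the host's methyl marks, was at 35.6 and 157 CPM (ratio 4.41, 2.97 to 6.66, relative ratio 3.58) in neutrophils. Its partner Ifit3 was at 12.2 and 96.7 CPM (ratio 7.93, 4.25 to 15.9, relative ratio 6.43), and Ifit3b, a near copy of Ifit3 with which reads may be shared, at 6.57 and 62.6 CPM (ratio 9.53, 4.14 to 25.5, relative ratio 7.73). Ifit2 had 1 and 7 UMIs in neutrophils, under the minimum of 20. The family also led in intermediate monocytes with 91.1 and 252 CPM (ratio 2.76, 2.13 to 3.6), against 113 and 177 CPM (ratio 1.57, 1.3 to 1.89) in Ly6C-high monocytes and 28.2 and 30.3 CPM (ratio 1.08, 0.643 to 1.92) in macrophages.

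The stretches of DNA just before the RefSeq starts of Ifit1, Ifit3, Isg15, Rsad2 and Slfn5 are shown because these genes, among members with at least 50 UMIs, had high neutrophil ratios and hold matches to the ISRE. Slfn8 also meets this and is not shown. The sequences are from RefSeq (GRCm38.p6), 5′ to 3′ on the gene's strand, and capitals mark matches to GAAANNGAAA on either strand (the ISRE-like motif). They lie at chr19:34640755-34640843 (Ifit1, + strand), chr19:34583343-34583446 (Ifit3, + strand), chr4:156200845-156200926 (Isg15, - strand, with 3 overlapping matches), chr12:26456533-26456602 (Rsad2, - strand) and chr11:82951917-82951986 (Slfn5, + strand). The match nearest the start lies 75 bases before it for Ifit1, 112 for Ifit3, 56 for Isg15, 110 for Rsad2 and 145 for Slfn5. In GENCODE M21 Slfn5 starts earlier, at 82951349, so its stretch lies inside the gene by that annotation.
Ifit1: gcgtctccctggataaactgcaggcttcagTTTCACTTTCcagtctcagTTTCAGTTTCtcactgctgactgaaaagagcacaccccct
Ifit3: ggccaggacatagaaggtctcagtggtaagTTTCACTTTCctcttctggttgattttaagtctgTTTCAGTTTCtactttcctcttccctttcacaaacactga
Isg15: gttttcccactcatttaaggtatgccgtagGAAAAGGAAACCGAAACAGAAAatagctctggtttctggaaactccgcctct
Rsad2: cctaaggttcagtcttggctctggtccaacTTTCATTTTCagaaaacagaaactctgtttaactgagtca
Slfn5: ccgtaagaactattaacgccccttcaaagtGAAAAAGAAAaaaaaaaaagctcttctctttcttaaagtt

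RefSeq promoter windows were matched for 35 of the 45 genes. In the 250 bases before the start, 19 of these 35 genes (54.3%) held an ISRE-like match, in 20 of their 43 windows (46.5%), against 978 of 32851 windows of all genes (2.98%). The GAS-like motif TTCNNNGAA, searched on both strands, was in the windows of 8 of the 35 genes (22.9%), or 8 of 43 windows (18.6%), against 2306 of all windows (7.02%). In neutrophils the 16 measured members with an ISRE-like match had a median ratio of 3.98 (range 1.33 to 9.53), and the 13 without a match 2.48 (range 1.40 to 4.49). The ranges overlap, 14 of the 16 and 11 of the 13 passed the fold, beside 27.3% of all genes, and the difference was not tested. In Ly6C-high monocytes 19 members with a match had a median ratio of 1.28 and 15 without had 1.36. In intermediate monocytes the medians were 1.75 for 18 members with a match and 1.64 for 15 without. A match describes letters in a window and does not show binding.

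Isg15 encodes a ubiquitin-like protein that is attached to other proteins and also secreted. It was at 106 and 472 CPM (ratio 4.45, 3.55 to 5.61, relative ratio 3.61) in neutrophils, from 113 and 249 UMIs. At least 1 Isg15 UMI was found in 18.5% of control and 42.2% of Adipo Δ/Δ neutrophils. After thinning every cell to 1000 UMIs the shares were 7.17% and 22.9%, with 21 and 16 shallower neutrophils left out. In NK cells, which had a greater median depth (6470.5 and 6493 UMIs, against 2968.5 and 2720 in neutrophils), the thinned shares were 1.44% and 0.575%, and the shares before thinning 8.65% and 12%. Usp18, which removes Isg15 from proteins and dampens the type I receptor, was at 5.63 and 64.4 CPM (ratio 11.5, 4.75 to 33.4, relative ratio 9.29) in neutrophils from 6 and 34 UMIs. Herc6, the ligase that attaches Isg15 in mice, was at 10.3 and 36 CPM (ratio 3.49, 1.58 to 8.12, relative ratio 2.83). Together this group of 3 genes summed to 122 and 572 CPM (ratio 4.69, 3.81 to 5.81, relative ratio 3.81) in neutrophils, 232 and 441 CPM (ratio 1.9, 1.59 to 2.27) in intermediate monocytes and 48.2 and 105 CPM (ratio 2.17, 1.65 to 2.87, relative ratio 1.88) in T cells.

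Active enzymes of the Oas family make short chains of adenylate when they meet double-stranded RNA, which turns on an RNA-cutting enzyme. The 5 family genes followed here lie in groups on chromosome 5, with Oas1a, Oas2 and Oas3 within 177 kb and Oasl1 and Oasl2 within 41.0 kb. In neutrophils they summed to 388 and 909.8 CPM (ratio 2.34, 2.05 to 2.68, relative ratio 1.9), and 4 of 5 were higher, beside 27.3% of all genes. Oasl2 was at 201 and 499 CPM (ratio 2.48, 2.07 to 2.99, relative ratio 2.02), Oas3 at 102 and 227 CPM (ratio 2.22, 1.7 to 2.91, relative ratio 1.81) and Oasl1 at 29.1 and 75.8 CPM (ratio 2.61, 1.59 to 4.31, relative ratio 2.12). Oas1a, whose reads may be shared with its close relative Oas1g, was at 4.69 and 36 CPM (ratio 7.68, 2.77 to 26.3, relative ratio 6.23) from 5 and 19 UMIs. Oas2 differed least of the 5, with 51.6 and 72 CPM (ratio 1.4, 0.898 to 2.15, relative ratio 1.13). In Ly6C-high monocytes the family summed to 185 and 315 CPM (ratio 1.71, 1.48 to 1.96), with Oas1a at 30.4 and 71.6 CPM (ratio 2.36, 1.7 to 3.28) and Oasl2 at 78 and 138 CPM (ratio 1.77, 1.42 to 2.2).

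The sensors Ifih1, Ddx58 and Dhx58 detect viral RNA in the cytosol, and Zbp1 detects nucleic acid in the Z form. Their sum was 106 and 214 CPM (ratio 2.02, 1.54 to 2.65, relative ratio 1.64) in neutrophils. Ddx58, the sensor also called RIG-I, was at 50.6 and 96.7 CPM (ratio 1.91, 1.28 to 2.85, relative ratio 1.55), and Zbp1 at 30.0 and 77.7 CPM (ratio 2.59, 1.59 to 4.25, relative ratio 2.1). Ifih1 was at 12.2 and 28.4 CPM (ratio 2.33, 1.04 to 5.32, relative ratio 1.89) from 13 and 15 UMIs. Dhx58, which tunes the other sensors, had 14 and 6 UMIs and the lowest ratio of the measured members in neutrophils (0.866, 0.273 to 2.4). In Ly6C-high monocytes the sensors summed to 274 and 309 CPM (ratio 1.13, 0.986 to 1.28).

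Irf7, Irf9, Stat2 and Irf1 are transcription factors that both carry the interferon signal and are induced by it. All 4 were higher in neutrophils, beside 27.3% of all genes, summing to 295 and 586 CPM (ratio 1.99, 1.69 to 2.33, relative ratio 1.61). Irf7, which drives further interferon production, was at 36.6 and 116 CPM (ratio 3.16, 2.08 to 4.85, relative ratio 2.57). Stat2 was at 21.6 and 66.3 CPM (ratio 3.08, 1.77 to 5.45, relative ratio 2.5) and its partner Irf9 at 76.9 and 131 CPM (ratio 1.7, 1.22 to 2.37, relative ratio 1.38). Irf1, which interferon gamma also induces, was at 159 and 273 CPM (ratio 1.71, 1.36 to 2.15, relative ratio 1.39), and the relative ratios of Irf9 and Irf1 are below the fold of 1.5. The group summed to 293 and 456 CPM (ratio 1.55, 1.38 to 1.74) in Ly6C-high monocytes and 329 and 549.6 CPM (ratio 1.67, 1.43 to 1.95) in intermediate monocytes, with Irf7 at 115 and 194 CPM (ratio 1.7, 1.41 to 2.03) and 159 and 293 CPM (ratio 1.85, 1.49 to 2.3) in these classes.

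The membrane proteins Ifitm3 and Bst2 hold viruses at the cell surface or in endosomes, and Ifitm3 behaved unlike the inducible core. In neutrophils Ifitm3 was at 1109 and 1552 CPM (ratio 1.4, 1.28 to 1.53, relative ratio 1.14), under the fold of 1.5 by each ratio. In Ly6C-high monocytes it was at 4071 and 4212 CPM (ratio 1.03, 0.999 to 1.07), in intermediate monocytes at 3713 and 3195 CPM (ratio 0.861, 0.815 to 0.908) and in macrophages at 1577 and 967 CPM (ratio 0.613, 0.571 to 0.659). Bst2, a tether for budding virus, had 8 and 14 UMIs in neutrophils and stood higher in the other myeloid classes: 193 and 288 CPM (ratio 1.49, 1.29 to 1.72) in Ly6C-high monocytes, 195 and 196 CPM (ratio 1.0, 0.824 to 1.23) in macrophages and 328 and 282 CPM (ratio 0.859, 0.701 to 1.05) in dendritic cells.

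Rsad2 (viperin) makes a nucleotide that stops viral RNA synthesis, and Cmpk2, its neighbour on chromosome 12 within 37.1 kb, supplies nucleotides in mitochondria. Rsad2 was at 84.4 and 474 CPM (ratio 5.61, 4.39 to 7.23, relative ratio 4.56) in neutrophils from 90 and 250 UMIs. Cmpk2 was at 26.3 and 85.3 CPM (ratio 3.25, 1.98 to 5.41, relative ratio 2.64) there. The RNA-degrading nuclease Isg20 stood at 46 and 64.4 CPM (ratio 1.4, 0.878 to 2.22, relative ratio 1.14). In neutrophils the 3 genes summed to 157 and 624 CPM (ratio 3.98, 3.29 to 4.83, relative ratio 3.23), whereas in macrophages they summed to 38.1 and 22.1 CPM (ratio 0.579, 0.361 to 0.965). There 3 of 3 were lower by the fold, beside 12.2% of all genes, and the interval of each single gene includes 1.

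Guanylate-binding proteins (Gbp) and immunity-related GTPases (Igtp, Irgm1, Iigp1, Ifi47) attack membranes around microbes and respond strongly to interferon gamma. Few of their counts came from neutrophils, where Gbp genes summed to 75 and 136 CPM (ratio 1.82, 1.3 to 2.53, relative ratio 1.48) and the GTPases to 35.6 and 100.5 CPM (ratio 2.82, 1.82 to 4.39, relative ratio 2.29). Gbp2 was at 33.8 and 49.3 CPM (ratio 1.46, 0.846 to 2.49, relative ratio 1.18) and Gbp7 at 37.5 and 62.6 CPM (ratio 1.67, 1.02 to 2.71, relative ratio 1.35) in neutrophils, and Gbp4 and Iigp1 had 0 UMIs there in both libraries. Irgm1 was at 16.9 and 53.1 CPM (ratio 3.14, 1.68 to 6.03, relative ratio 2.55) in neutrophils. In T cells the Gbp genes summed to 145 and 219 CPM (ratio 1.51, 1.27 to 1.79, relative ratio 1.3) and the GTPases to 259 and 308 CPM (ratio 1.19, 1.04 to 1.36, relative ratio 1.03), and in NK cells to 251 and 306 CPM (ratio 1.22, 1.05 to 1.41) and 179 and 226 CPM (ratio 1.26, 1.07 to 1.5). Ifi47 was at 139 and 170.5 CPM (ratio 1.22, 1.02 to 1.47, relative ratio 1.06) in T cells and 141 and 164 CPM (ratio 1.17, 0.959 to 1.42) in NK cells. Igtp was at 70.3 and 83.8 CPM (ratio 1.19, 0.919 to 1.55, relative ratio 1.03) in T cells. Over all cells Iigp1 had 28 and 69 UMIs. Because Gbp genes are near copies of one another, counts of single genes are uncertain where reads are shared.

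The 9 remaining members have mixed roles. Slfn5, of the Schlafen family, was at 50.6 and 315 CPM (ratio 6.21, 4.54 to 8.61, relative ratio 5.04) in neutrophils, and its relative Slfn8 at 15 and 77.7 CPM (ratio 5.18, 2.84 to 9.89, relative ratio 4.2). Rtp4, a chaperone for receptors at the membrane, was at 133 and 368 CPM (ratio 2.76, 2.21 to 3.45, relative ratio 2.24). Trim30a, which dampens inflammatory signalling, was at 319.8 and 426 CPM (ratio 1.33, 1.12 to 1.58, relative ratio 1.08). Parp14, which adds ADP-ribose to proteins, stood at 43.1 and 77.7 CPM (ratio 1.8, 1.15 to 2.81, relative ratio 1.46), Xaf1, which promotes cell death, at 8.44 and 37.9 CPM (ratio 4.49, 1.95 to 11.2, relative ratio 3.64), and Ifi35 at 13.1 and 39.8 CPM (ratio 3.03, 1.47 to 6.45, relative ratio 2.46). Ifi44 and Phf11b had 0 UMIs in neutrophils of both libraries. In neutrophils 6 of the 7 measured genes of this group were higher, beside 27.3% of all genes, and by the relative ratio Parp14 also falls below the fold.

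**Figure D3:**
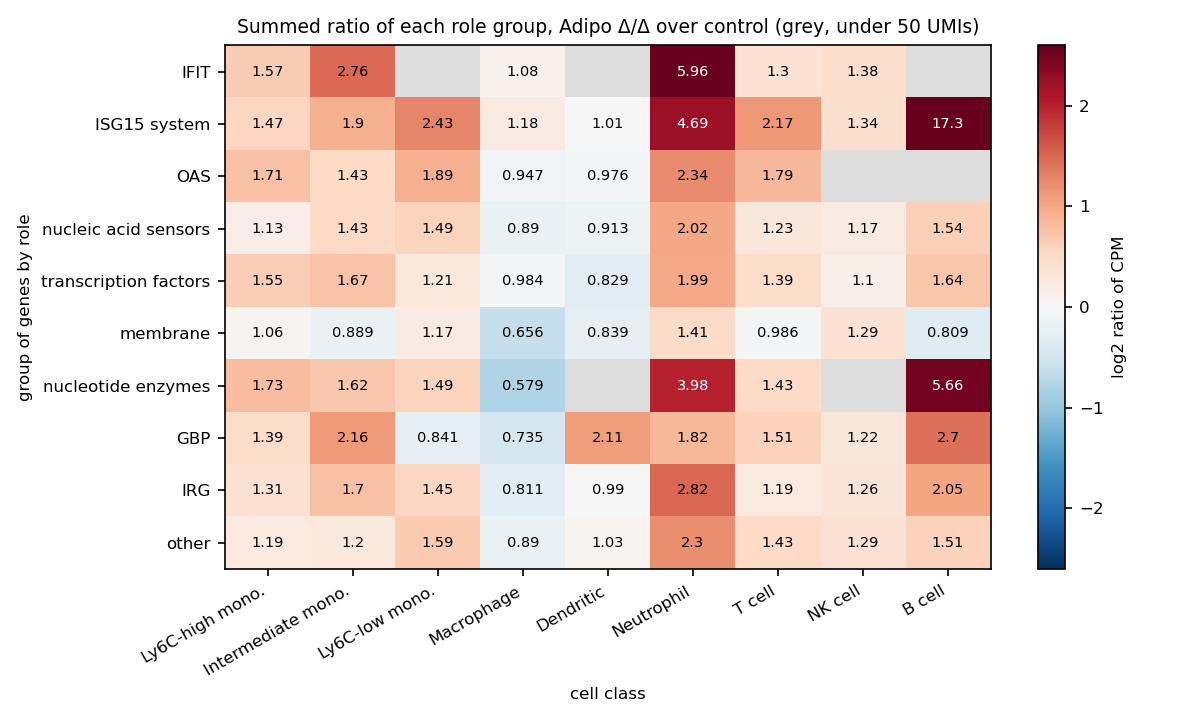
Ratio of summed CPM, Adipo Δ/Δ over control, for each role group of interferon-stimulated genes (vertical axis) in 9 cell classes (horizontal axis). Color is the log2 ratio, numbers are ratios such as 5.96 for the Ifit genes in neutrophils, and grey marks groups with under 50 UMIs.

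By the rule used to name genes (the 5 highest and 5 lowest ratios among members with at least 50 UMIs in the class), the 24 eligible neutrophil members were led by Ifit3, Slfn5, Rsad2, Slfn8 and Isg15. At the low end stood Trim30a, Oas2, Ifitm3, Isg20 and Gbp2, each with a ratio between 1.33 and 1.46. Other properties of the neutrophils also differed. Neutrophil markers (6 of 6 detected in each library) summed to 256762 and 179668 CPM, with S100a9 at 120790 and 83490 CPM. When S100a8 and S100a9 were left out of the total, the member ratio was 1.99. The median mitochondrial share was 1.72% and 0.395%, and the ribosomal share of UMIs was 3.02% and 4.66%. Macrophage markers (9 and 10 of 10 detected) summed to 304 and 635 CPM, with Apoe at 178 and 256 CPM. Ly6C-low monocyte markers summed to 106 and 210 CPM, with Nr4a1 at 76.0 and 146 CPM, and plasma cell markers to 25.3 and 64.4 CPM. Ly6C-high monocyte markers differed the other way, at 1580 and 1361 CPM. The part of these differences in the result was not tested. Splitting the neutrophils at a finer resolution gave a cluster led by Retnlg with 2841 and 6832 CPM of members (146 and 108 cells, ratio 2.40) and a cluster led by Lcn2 with 3049 and 5397 CPM (168 and 65 cells, ratio 1.77).

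In Ly6C-high monocytes, the inflammatory monocytes that enter tissue from blood, the summed antiviral core was higher while the most abundant member was level. Rsad2 had the highest ratio of 37 eligible members, at 25.9 and 80.6 CPM (ratio 3.11, 2.23 to 4.37). Usp18 was at 29.6 and 65.3 CPM (ratio 2.21, 1.57 to 3.1), Ifit2 at 20.5 and 43.9 CPM (ratio 2.14, 1.41 to 3.23) and Ifit3 at 37.4 and 74.3 CPM (ratio 1.99, 1.46 to 2.71). Unlike in neutrophils, Ifit1 was near level at 45.2 and 47.4 CPM (ratio 1.05, 0.742 to 1.47), although it sits in the same gene cluster as Ifit3. Isg15 stood at 134 and 176 CPM (ratio 1.32, 1.1 to 1.58) and Stat2 at 46 and 79.7 CPM (ratio 1.73, 1.3 to 2.31). Lowest were Zbp1 at 149.9 and 149 CPM (ratio 0.991, 0.82 to 1.19), then Ifitm3 and Ifit1 as given, Xaf1 at 78.8 and 83.3 CPM (ratio 1.06, 0.815 to 1.36) and Trim30a at 183 and 198 CPM (ratio 1.08, 0.915 to 1.27). The higher levels lay in the cluster led by Chil3 and Vcan (224 and 100 cells), with 6552 and 8086 CPM of members (ratio 1.23) and a core ratio of 1.58. In the cluster led by Plac8 (122 and 58 cells) the members were at 7001 and 6655 CPM (ratio 0.951), which reverses the direction, and the core ratio was 1.02. Macrophage markers summed to 1293 and 1935 CPM in Ly6C-high monocytes, with Apoe at 889 and 1136 CPM, and their part in the result was not tested.

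In intermediate monocytes the Ifit genes had the largest ratio of the 10 role groups. Ifit3 had the highest ratio of 32 eligible members, at 33.3 and 109 CPM (ratio 3.26, 2.14 to 5.07). Gbp2 was at 34.3 and 96.3 CPM (ratio 2.81, 1.83 to 4.38), Ifit1 at 25.5 and 69.9 CPM (ratio 2.74, 1.66 to 4.63), Ifit2 at 27.4 and 63.7 CPM (ratio 2.32, 1.4 to 3.9) and Ddx58 at 32.3 and 74.5 CPM (ratio 2.31, 1.45 to 3.71). Isg15 stood at 181 and 366 CPM (ratio 2.02, 1.66 to 2.47) and Ifi47 at 75.4 and 155 CPM (ratio 2.06, 1.51 to 2.81). Which interferon induced these genes was not tested. All 4 measured Gbp genes were higher in this class, beside 14% of all genes. At the low end were Ifitm3 at the values above, Ifi35 at 73.4 and 69.9 CPM (ratio 0.951, 0.642 to 1.39), Oas3 at 71.5 and 69.9 CPM (ratio 0.977, 0.659 to 1.44), Ifih1 at 62.7 and 62.1 CPM (ratio 0.991, 0.65 to 1.49) and Trim30a at 164 and 168 CPM (ratio 1.03, 0.797 to 1.31). When interferon genes were allowed to shape the clusters, the member ratio of this class was 0.904, which reverses its direction. At a resolution of 2, 53 and 48 cells of this class joined a cluster led by Aif1 and Cfb that was named macrophage (63 and 49 cells, member ratio 0.989, core ratio 1.55), and the cluster still named intermediate monocyte (124 and 66 cells) had a member ratio of 1.27 and a core ratio of 1.76. Macrophage markers (9 and 10 of 10 detected) summed to 1803 and 4024 CPM in this class, with Apoe at 1308 and 2094 CPM, and Ly6C-low monocyte markers to 1680 and 1001 CPM. Their part in the result was not tested.

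Ly6C-low monocytes had shallower cells (median 2349 and 1923.5 UMIs), and 13 members were eligible. At a finer resolution the core ratio was 2.06 (1.74 to 2.44) in the cluster led by Cd300e and 1.14 (0.80 to 1.6) in that led by Tcf7l2 (113 and 67 cells), with member ratios of 1.29 and 1.03. Bst2 had the highest ratio, at 50.6 and 126 CPM (ratio 2.5, 1.63 to 3.88, relative ratio 2.32). Rtp4 was at 25.3 and 59.6 CPM (ratio 2.35, 1.27 to 4.51, relative ratio 2.19), Irf7 at 44.7 and 97.5 CPM (ratio 2.18, 1.37 to 3.53, relative ratio 2.03), Trim30a at 67 and 123 CPM (ratio 1.83, 1.24 to 2.73, relative ratio 1.7) and Slfn5 at 43.2 and 68.6 CPM (ratio 1.59, 0.954 to 2.67, relative ratio 1.48). The lowest ratios belonged to Irf1 at 98.2 and 92 CPM (ratio 0.937, 0.637 to 1.37, relative ratio 0.87), Irf9 at 86.3 and 81.2 CPM (ratio 0.941, 0.623 to 1.41, relative ratio 0.874), Ifitm3 at 1963 and 2220.0 CPM (ratio 1.13, 1.05 to 1.22, relative ratio 1.05), Parp14 at 75.9 and 92 CPM (ratio 1.21, 0.806 to 1.82, relative ratio 1.13) and Ifih1 at 47.6 and 65 CPM (ratio 1.36, 0.824 to 2.27, relative ratio 1.27). Gbp2, the 1 member called lower, was at 47.6 and 25.3 CPM (ratio 0.53, 0.262 to 1.02, relative ratio 0.493) from 32 and 14 UMIs and is named here after its value was seen. T cell markers (2 and 7 of 7 detected) summed to 4.47 and 50.5 CPM in this class, with Trbc2 at 0 and 12.6 CPM, NK cell markers (4 and 3 of 7) to 19.4 and 46.9 CPM, plasma cell markers (4 and 3 of 5) to 38.7 and 86.6 CPM and neutrophil markers (5 of 6) to 476 and 285 CPM, with S100a9 at 193.5 and 83 CPM. Their part in the result was not tested.

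**Figure D4:**
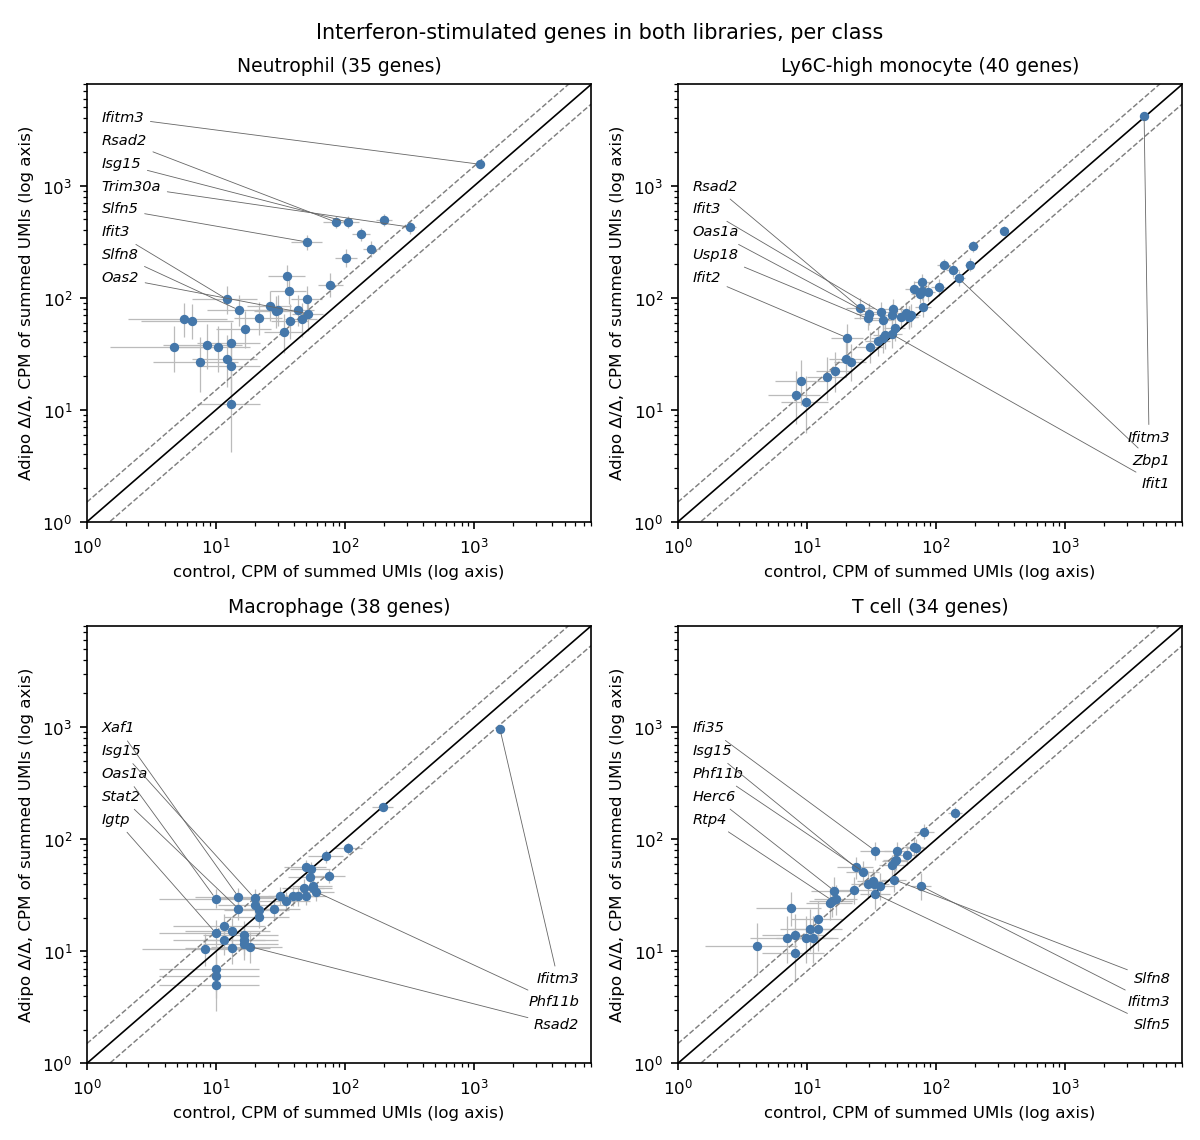
CPM of each measured interferon-stimulated gene in control (horizontal, log axis) and Adipo Δ/Δ (vertical, log axis) neutrophils (35 genes), Ly6C-high monocytes (40), macrophages (38) and T cells (34). The diagonal marks equal levels, and Rsad2 in neutrophils lies at 84.4 and 474 CPM.

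Macrophages differed in the other direction, and their make-up differed as well. The control macrophages came mainly from clusters led by Folr2 and Lyve1 (63 cells) and by Lyz1 and Retnla (50 cells), and those of Adipo Δ/Δ from clusters led by Lyz1 and Retnla (174 cells) and by Gsn and Lpl (165 cells). Oas1a had the highest ratio of 33 eligible members, at 9.94 and 29.5 CPM (ratio 2.97, 1.32 to 8.27). Xaf1 was at 14.9 and 30.6 CPM (ratio 2.05, 1.04 to 4.61), Stat2 at 14.9 and 24 CPM (ratio 1.61, 0.81 to 3.64), Isg15 at 19.9 and 29.8 CPM (ratio 1.5, 0.824 to 2.99) and Igtp at 9.94 and 14.6 CPM (ratio 1.47, 0.633 to 4.19). At the low end were Phf11b at 59.6 and 33.9 CPM (ratio 0.569, 0.39 to 0.85), Rsad2 at 18.2 and 11 CPM (ratio 0.606, 0.305 to 1.31), Ifitm3 as given, Gbp7 at 74.5 and 47.2 CPM (ratio 0.633, 0.453 to 0.90) and Oasl2 at 49.7 and 31.4 CPM (ratio 0.633, 0.42 to 0.98). Thus Rsad2 and Oasl2, with ratios above 1 in neutrophils, had ratios below 1 in macrophages.

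The difference varied between macrophage clusters. The cluster led by Lyz1 and Retnla had 1965 and 2008 CPM of members (ratio 1.02), with core genes at 245 and 352 CPM (ratio 1.44). The cluster led by Folr2 and Lyve1 had 3584 and 3435 CPM (ratio 0.958). Lower levels were found in the cluster led by Gsn and Lpl, with 3190 and 1576 CPM (31 and 165 cells, ratio 0.494). The cluster led by Gpnmb and Cd63 had 6502 and 1406 CPM (12 and 70 cells, ratio 0.216). Its median depth was 1321 and 13087 UMIs, and its control cells held 184 member UMIs. The median depth of the cluster led by Gsn was 1914 and 864 UMIs, and the part of depth was not tested. Without the cluster led by Gpnmb the member ratio was 0.909, and the core ratio was 1.04, which reverses its direction. Markers of other cells differed in both directions in macrophages. Stromal cell markers summed to 6.63 and 82.2 CPM, endothelial cell markers to 79.5 and 125 CPM and plasma cell markers to 44.7 and 79.2 CPM. Other lists were higher in the control macrophages. Neutrophil markers (6 of 6) summed to 1588 and 201 CPM, with S100a9 at 722 and 65.7 CPM, mast cell markers (5 and 3 of 5) to 740.4 and 45.2 CPM, with Mcpt4 at 489 and 30.9 CPM, and NK cell markers (7 and 6 of 7) to 209 and 17.7 CPM, with Gzma at 103 and 11.9 CPM. Their part in the result was not tested.

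Dendritic cells, which present antigen to T cells, had 8 eligible members, with ratios on both sides of 1. Ifi35 was highest at 43 and 71.4 CPM (ratio 1.66, 1.01 to 2.81), followed by Zbp1 at 34.1 and 41 CPM (ratio 1.2, 0.659 to 2.25), Phf11b at 87.8 and 91.2 CPM (ratio 1.04, 0.71 to 1.53) and Irf9 at 53.8 and 55.5 CPM (ratio 1.03, 0.631 to 1.71). Slfn5 was lowest at 115 and 85.9 CPM (ratio 0.749, 0.522 to 1.07), then Trim30a at 89.6 and 71.4 CPM (ratio 0.797, 0.532 to 1.19) and Ifitm3 at 2165 and 1809.8 CPM (ratio 0.836, 0.773 to 0.904). Gbp genes summed to 26.9 and 56.8 CPM (ratio 2.11, 1.15 to 4.1) from 15 and 43 UMIs, a group past the fold in this class. Markers of plasmacytoid dendritic cells (3 and 6 of 6 detected) summed to 89.6 and 263 CPM in this class, with Tcf4 at 78.9 and 129.6 CPM, macrophage markers (7 and 9 of 10) to 393 and 564 CPM, with Cd68 at 158 and 217 CPM, and dividing cell markers (1 and 4 of 5) to 12.5 and 39.7 CPM. Their part in the result was not tested.

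T cells had low levels. The largest control cluster was led by Dapl1 and Lef1 (204 cells) and the largest Adipo Δ/Δ cluster by Cxcr6 (139 cells). Among 24 eligible members, those with at least 50 UMIs, Isg15 was highest at 23.8 and 56.1 CPM (ratio 2.36, 1.6 to 3.52, relative ratio 2.04), then Ifi35 at 33.7 and 79 CPM (ratio 2.34, 1.69 to 3.27, relative ratio 2.03). Gbp3, with fewer UMIs and named after its value was seen, was at 7.55 and 24.3 CPM (ratio 3.21, 1.66 to 6.61, relative ratio 2.78). Herc6 stood at 16.3 and 34.6 CPM (ratio 2.13, 1.32 to 3.51, relative ratio 1.84), Phf11b at 27.3 and 51.3 CPM (ratio 1.88, 1.29 to 2.77, relative ratio 1.62) and Rtp4 at 15.7 and 28.4 CPM (ratio 1.81, 1.09 to 3.06, relative ratio 1.57). The lowest were Ifitm3 at 76.7 and 38.1 CPM (ratio 0.497, 0.356 to 0.685, relative ratio 0.43), Slfn8 at 47.1 and 43.7 CPM (ratio 0.928, 0.657 to 1.31, relative ratio 0.802), Slfn5 at 33.7 and 32.6 CPM (ratio 0.966, 0.643 to 1.44, relative ratio 0.835), Irgm1 at 36.6 and 38.1 CPM (ratio 1.04, 0.712 to 1.52, relative ratio 0.90) and Ddx58 at 33.1 and 39.5 CPM (ratio 1.19, 0.811 to 1.75, relative ratio 1.03), of which Irgm1 turns below 1 relative to the median gene. In the cluster led by Dapl1 the members were at 928 and 1079.9 CPM (ratio 1.16) and the core ratio was 0.924, which reverses its direction, while the cluster led by Cxcr6 had 1679 and 1945 CPM (ratio 1.16) and a core ratio of 1.45. The cluster led by Lef1 and Cd8b1 (73 and 50 cells) had member and core ratios of 1.31 and 1.61. At a resolution of 2, 35 and 27 cells of the class formed a cluster with markers of type 2 innate lymphoid cells, with ratios of 0.72 and 0.509 that reverse the direction. Mast cell markers (0 and 4 of 5 detected, Mcpt8 at 0) summed to 0 and 274 CPM in T cells, with Mcpt4 at 167 CPM in Adipo Δ/Δ. NK cell markers summed to 270 and 597 CPM, with Gzma at 173 and 505 CPM. Dividing cell markers summed to 15.7 and 70.0 CPM, macrophage markers to 45.3 and 136 CPM and neutrophil markers to 393 and 80.4 CPM. Their part in the result was not tested.

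NK cells are themselves a source of interferon gamma. Of 23 eligible members Igtp had the highest ratio, at 11.8 and 29.5 CPM (ratio 2.49, 1.38 to 4.7). Gbp3 was at 24.4 and 40.1 CPM (ratio 1.64, 1.05 to 2.6), Slfn8 at 59.9 and 98.3 CPM (ratio 1.64, 1.24 to 2.18), Gbp4 at 74.5 and 114 CPM (ratio 1.53, 1.19 to 1.98) and Ifi35 at 41.1 and 62 CPM (ratio 1.51, 1.07 to 2.15). The lowest were Gbp2 at 21.6 and 15.1 CPM (ratio 0.70, 0.378 to 1.27), Gbp5 at 25.1 and 20.4 CPM (ratio 0.814, 0.475 to 1.38), Ddx58 at 49.4 and 41.6 CPM (ratio 0.841, 0.58 to 1.21), Parp14 at 88.5 and 89.2 CPM (ratio 1.01, 0.778 to 1.31) and Irf1 at 132 and 135 CPM (ratio 1.02, 0.824 to 1.25). Gbp7 stood at 105 and 116 CPM (ratio 1.1, 0.873 to 1.39), so members of the Gbp family lay on both sides of level in this class. Macrophage markers (9 of 10 detected in each library) summed to 33.4 and 109 CPM in NK cells, with Apoe at 13.2 and 28.0 CPM, and neutrophil markers (6 of 6) to 267 and 61.3 CPM, with S100a9 at 132 and 31.8 CPM. Their part in the result was not tested.

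B cells had few member UMIs, 530 and 442 in all, and 4 eligible members. Rsad2 was at 8.73 and 207 CPM (ratio 23.7, 9.49 to 76.4, relative ratio 21.9) from 5 and 48 UMIs. Trim30a was at 55.8 and 104 CPM (ratio 1.85, 1.04 to 3.25, relative ratio 1.71), Irf9 at 59.3 and 104 CPM (ratio 1.74, 0.99 to 3.03, relative ratio 1.61) and Ifitm3 at 152 and 99.2 CPM (ratio 0.653, 0.394 to 1.04, relative ratio 0.602). A single Adipo Δ/Δ cell of 6444 UMIs held 150 of the 210 core UMIs of its class (71.4%), among them 38 of Isg15 and 47 of Rsad2. Without the cell of highest core count in each library Rsad2 had 5 and 1 UMIs, which reverses its direction, and 3 of 13 measured members were higher and 1 lower, beside 17.6% and 10.7% of all genes. The Adipo Δ/Δ cell had 37 UMIs of B cell markers and 141 of neutrophil markers and was not called a doublet. Without these 2 cells the members were at 893 and 1065 CPM (ratio 1.19, 1.02 to 1.39) and the core at 204 and 266 CPM (ratio 1.3, 0.938 to 1.8). Haemoglobin genes summed to 19105 and 64.7 CPM in the B cell class. When they were left out of the total, the member ratio of all B cells stayed within its interval of 1.81 to 2.34.

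The core genes were also counted cell by cell, after each cell was thinned to 1000 UMIs. Among neutrophils, 13 of 293 control cells (4.44%, 2.38 to 7.47%) and 28 of 157 Adipo Δ/Δ cells (17.8%, 12.2 to 24.7%) had at least 5 core UMIs, a ratio of 4.02 (2.01 to 8.45). The mean was 1.04 and 2.94 core UMIs, and the highest cell had 11 and 35. At least 1 core UMI was found in 44.7% and 73.2% of neutrophils. Single UMIs can also come from RNA outside the cell (S100a8 was detected in 34.1% and 10.9% of T cells), and this was not tested. B cells, the lowest class by this measure in each library, had 16.6% and 22.4%. This is a range and not a type of cell, and next to the threshold 10 control neutrophils lay at 4 and 4 at 5 core UMIs, and 11 and 9 in Adipo Δ/Δ.

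Among Ly6C-high monocytes the share of cells with any core UMI was close to equal in the libraries. At least 5 core UMIs were found in 18 of 333 control cells (5.41%) and 16 of 149 Adipo Δ/Δ cells (10.7%), a ratio of 1.99 (0.948 to 4.13) whose interval includes 1, and at least 1 in 51.7% and 50.3%. Thinned to 2000 UMIs, 4.32% and 6.34% had at least 10. Cells at 4 and 5 core UMIs numbered 10 and 9 in the control and 9 and 6 in Adipo Δ/Δ. The mean was 1.14 and 1.74 core UMIs, the median 1 in each library, and the highest cell had 9 and 25. At least 15 core UMIs were found in 0 control and 3 Adipo Δ/Δ Ly6C-high monocytes. In intermediate monocytes 12 of 171 (7.02%) and 10 of 109 (9.17%) had at least 5, and at least 1 was found in 48.5% and 60.6%. Macrophages had 0.690% and 0.685% of cells at this level. Thinning left out 13 and 9 Ly6C-high monocytes, 6 and 4 intermediate monocytes, and 11 and 112 macrophages.

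**Figure D5:**
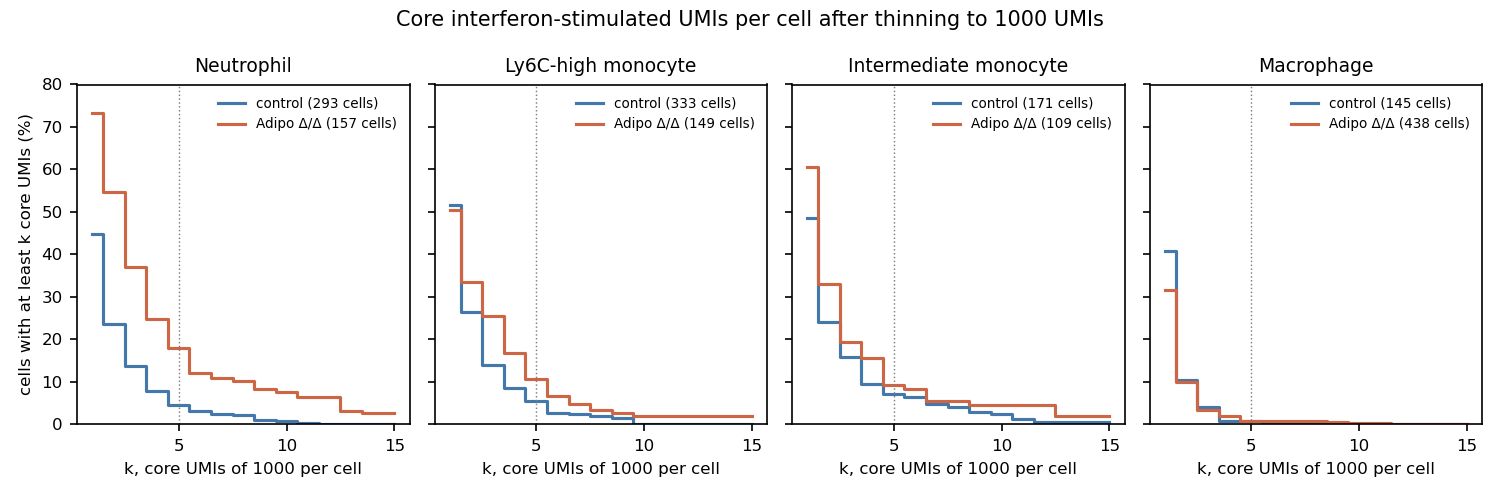
Share of cells (vertical, %) with at least k core UMIs (horizontal) after thinning to 1000 UMIs, for control and Adipo Δ/Δ in 4 classes. The dotted line marks 5 core UMIs, reached by 4.44% and 17.8% of neutrophils.

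Isg15 and the other core genes were compared cell by cell. In neutrophils with an Isg15 UMI after thinning, the mean count of the other core genes was 2.48 in the control (21 cells) and 5.42 in Adipo Δ/Δ (36 cells), against 0.827 and 1.63 in neutrophils without. In Ly6C-high monocytes the same means were 2.63 and 6.29 with Isg15, against 0.802 and 1.13 without. Intermediate monocytes with Isg15 had 3.92 and 4.40, against 0.607 and 0.921. In each of the other classes at most 9 cells per library had Isg15, and their means were above those of the cells without wherever both were present, from 0.333 (3 cells) against 0.322 in control NK cells to 2.6 (5 cells) against 0.211 in Adipo Δ/Δ B cells. Before thinning, 38 Isg15 UMIs of the Adipo Δ/Δ B cells lay in the single cell described above, and 5 in all the others. Interferon-stimulated genes outside the 45 were also more abundant in cells with at least 5 core UMIs: in neutrophils a mean of 15.8 UMIs against 10.1 in the other control cells, and 18.04 against 11.02 in Adipo Δ/Δ. Neutrophil markers had medians of 151 against 221.5 UMIs in the control and 160.5 against 161 in Adipo Δ/Δ, while the medians of T, B and NK cell markers were 0 in these neutrophils. Their median mitochondrial share was 3.96% against 1.58% in the control and 0.278% against 0.383% in Adipo Δ/Δ.

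The type I and type III ligands were almost absent from the counts. Of 18 type I interferon genes 17, among them Ifnb1, had 0 UMIs in both libraries, and Ifnz had 1 UMI in an Adipo Δ/Δ NK cell. The type III genes Ifnl2 and Ifnl3 had 0 UMIs. Ifng, the type II interferon, was counted mainly in NK cells, at 132 and 119 CPM (ratio 0.908, 0.73 to 1.13), and in T cells, at 6.39 and 45.7 CPM (ratio 7.16, 3.75 to 15) from 11 and 66 UMIs. Counts from CD45+ cells do not cover interferons made by other cells of BAT.

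The summed receptor genes, as measured, were close to level in neutrophils and Ly6C-high monocytes. Ratios of pathway genes are given as measured, beside a factor of 1.23 for the median gene of neutrophils. Of 6 receptor genes measured in neutrophils 1 was higher and 0 lower, beside 27.3% and 5.28% of all genes, and the sum was 682 and 768 CPM (ratio 1.13, 0.995 to 1.27). In Ly6C-high monocytes 0 of 5 passed the fold, beside 11.6% of all genes higher and 6.21% lower, with a sum of 841 and 935 CPM (ratio 1.11, 1.03 to 1.2). Ifnar1 and Ifnar2, the chains of the type I receptor, were at 76.9 and 56.9 CPM (ratio 0.739, 0.47 to 1.14) and 98.5 and 121 CPM (ratio 1.23, 0.888 to 1.7) in neutrophils. Relative to the median gene Ifnar1 lies further below level, and counts of receptor genes past the fold are not given on that scale. Ifngr1, which binds interferon gamma, was at 207 and 231 CPM (ratio 1.12, 0.887 to 1.4) in neutrophils and 338 and 218 CPM (ratio 0.646, 0.553 to 0.757) in macrophages. Its partner chain Ifngr2 was at 182 and 212 CPM (ratio 1.17, 0.916 to 1.48) in neutrophils and 59.6 and 97.4 CPM (ratio 1.63, 1.16 to 2.37) in macrophages, the opposite direction to Ifngr1 there. Il10rb, shared by the type III receptor, was at 108 and 123 CPM (ratio 1.14, 0.829 to 1.56) in neutrophils.

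Kinases of the receptors and Stat3 were measured beside the factor of 1.23 for the median neutrophil gene. Jak1 was at 296 and 402 CPM (ratio 1.36, 1.13 to 1.62) in neutrophils and Tyk2 at 11.3 and 17.1 CPM (ratio 1.52, 0.564 to 3.92) from 12 and 9 UMIs. Stat3, which serves other cytokines, was at 294 and 356 CPM (ratio 1.21, 1.01 to 1.46). Jak2, a kinase of the gamma receptor, was at 39.4 and 56.9 CPM (ratio 1.44, 0.872 to 2.36) in neutrophils and 46.4 and 23.2 CPM (ratio 0.50, 0.322 to 0.796) in macrophages.

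Genes upstream of interferon, for sensing and relay, were largely level in Ly6C-high monocytes, where 0 of 13 measured genes passed the fold, beside 11.6% of all genes higher and 6.21% lower. There the DNA sensor Cgas was at 16 and 18.8 CPM (ratio 1.17, 0.656 to 2.05), its adaptor Tmem173 (STING) at 77.2 and 68.9 CPM (ratio 0.893, 0.676 to 1.17) and the adaptor Mavs at 11.1 and 16.1 CPM (ratio 1.45, 0.754 to 2.74). Tlr7, a receptor for RNA in endosomes, was at 45.6 and 61.8 CPM (ratio 1.36, 0.989 to 1.85) in Ly6C-high and 117 and 54.3 CPM (ratio 0.466, 0.31 to 0.685) in intermediate monocytes. The adaptor Myd88 was at 121 and 111 CPM (ratio 0.919, 0.739 to 1.14), Ticam1 at 15.6 and 16.1 CPM (ratio 1.03, 0.555 to 1.85) and Traf3 at 19.7 and 17 CPM (ratio 0.863, 0.479 to 1.5) in Ly6C-high monocytes. The kinases Tbk1 and Ikbke stood at 27.1 and 26 CPM (ratio 0.958, 0.597 to 1.5) and 17.7 and 18.8 CPM (ratio 1.06, 0.60 to 1.83). The factors Irf3, Irf5 and Irf8 stood at 25.5 and 28.6 CPM (ratio 1.13, 0.711 to 1.75), 230.0 and 254 CPM (ratio 1.11, 0.955 to 1.28) and 241 and 226 CPM (ratio 0.938, 0.806 to 1.09). In NK cells 5 of 11 genes of this list were higher and 0 lower, beside 10.3% and 4.49% of all genes, and in neutrophils 2 of 5 and 0, beside 27.3% and 5.28%.

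Inhibitors of the signal were measured as well. Of 6 in Ly6C-high monocytes 1 was higher, beside 11.6% of all genes: Socs1, which blocks the kinases, at 3.7 and 12.5 CPM (ratio 3.39, 1.37 to 8.88) from 9 and 14 UMIs. Socs3 was at 325 and 415 CPM (ratio 1.28, 1.08 to 1.52) in neutrophils, where it and the phosphatase Ptpn6, at 374 and 462 CPM (ratio 1.24, 1.05 to 1.45), had most of the counts of this list. Pias1, a further inhibitor, was at 43.1 and 73.9 CPM (ratio 1.71, 1.09 to 2.68) in neutrophils. The phosphatase Ptpn2 was at 31.2 and 30.4 CPM (ratio 0.975, 0.631 to 1.48) and Trim24 at 9.44 and 8.95 CPM (ratio 0.948, 0.403 to 2.07) in Ly6C-high monocytes.

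A further list of 76 interferon-stimulated genes outside the 45 was used for comparison, of which 73 were matched and 1 (Trex1) had no UMI. In neutrophils 21 of 41 measured genes of this list were higher and 1 lower (Ifitm6), beside 27.3% and 5.28% of all genes, and the list summed to 10669 and 12946 CPM (ratio 1.21, 1.18 to 1.25), beside the factor of 1.23 for the median gene. Ifi27l2a, named after its value was seen, was at 459.6 and 1903 CPM (ratio 4.14, 3.71 to 4.62) in neutrophils and Ifitm6 at 879 and 258 CPM (ratio 0.293, 0.243 to 0.351). In Ly6C-high monocytes 10 of 58 were higher and 2 lower (beside 11.6% and 6.21% of all genes), in intermediate monocytes 15 of 58 and 2 (14% and 11.6%), in macrophages 8 of 57 and 13 (20.4% and 12.2%), and in T cells 18 of 52 and 1 (18.6% and 5.44%). Among genes with at least 50 UMIs in Ly6C-high monocytes, Cxcl10, a chemokine for T cells, was highest at 42.3 and 153 CPM (ratio 3.62, 2.82 to 4.67). Next came Ifi213 at 23 and 73.4 CPM (ratio 3.19, 2.25 to 4.57), Lgals3bp at 44.3 and 106 CPM (ratio 2.38, 1.82 to 3.12), Ifi206 at 27.1 and 61.8 CPM (ratio 2.28, 1.6 to 3.24) and Slfn9 at 15.2 and 32.2 CPM (ratio 2.12, 1.3 to 3.45). The lowest were Ifitm6 at 586 and 475 CPM (ratio 0.811, 0.732 to 0.896), Dtx3l at 81.3 and 67.1 CPM (ratio 0.826, 0.624 to 1.08), Trim34a at 23.8 and 19.7 CPM (ratio 0.827, 0.482 to 1.37), Rnf213 at 166 and 141 CPM (ratio 0.847, 0.70 to 1.02) and Samhd1 at 719 and 705 CPM (ratio 0.98, 0.90 to 1.07). Reads may be shared within the Ifi200 and Slfn families.

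Genes outside the interferon lists whose level followed the core across the 9 classes and both libraries (18 points, which share libraries and depth) were Dck (Spearman rho 0.895), Gm5150 (0.891), Kctd20 (0.851), Mgst1 (0.846), Mboat7 (0.845), Tgfbi (0.845), Tnfaip2 (0.841), Nampt (0.839), Snx20 (0.839) and Lrrc25 (0.835), the 10 highest of 7772 candidates. This likeness is a description of levels across classes.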

How the data were processed

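The authors deposited raw UMI counts by gene and barcode, not normalized, made with Cell Ranger 4.0.0 (per the file headers) on mm10 (per the labels), for 2597 control and 2381 Adipo Δ/Δ barcodes with 11327187 and 12028844 UMIs. Cells needed at least 200 genes and a mitochondrial share of at most 10%, since a limit of 2%, as in the study's methods, would keep 1306 and 889 of these barcodes, fewer than the study states. Scrublet (Scanpy 1.11.5, expected rate 0.02) called 8 and 6 doublets, which were not removed for being called. Libraries were normalized with sctransform 0.4.2 and integrated by anchors in Seurat 5.3.0 (R 4.3.3) on 1922 features left after 78 interferon genes were dropped from 2000, with 20 components and a resolution of 1, which gave 18 clusters. Of these, 17 were named, each from at least 3 markers.

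The members, lists and markers were chosen with earlier results of these data known. Levels are CPM of summed UMIs with Poisson intervals, shares carry Clopper-Pearson intervals and ratios conditional binomial intervals (Python 3.11.15, SciPy 1.17.1, pandas 2.3.3, numpy 2.4.6, figures by matplotlib 3.10.9). The ratio intervals were tested on simulated class totals drawn as independent Poisson counts. That simulation held no single cells, so it does not cover counts that gather in a few cells. Counts of members past the fold used genes of 20 UMIs or more in a class. Named genes are members and interferons at any count, pathway genes with at least 200 UMIs, the 5 highest and 5 lowest ratios per class among members with at least 50 UMIs (for the further interferon list, in Ly6C-high monocytes), and the 10 genes most like the core. Alternatives changed cell filters, doublets, features, resolution, integration, scaling, thinning, members and thresholds. Plasma cells, dividing cells and the unnamed cluster were left out of the comparisons for their few cells or mixed types. Some genes are not reported here.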

Additional observations from a re-analysis of the deposited data

How the results depend on the processing

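No paired analysis was possible because each group is 1 library with no link between mice. The directions of the member sums were recomputed under each alternative, and the neutrophil ratio ranged from 1.77 to 2.65, the Ly6C-high from 0.951 to 1.36, the Ly6C-low from 1.03 to 1.48, the macrophage from 0.532 to 0.968, the T cell from 1.16 to 1.45, the NK cell from 1.12 to 1.26 and the B cell from 1.19 to 2.94. Across the ratios, shares and counts that answer the comparisons, 113 values under alternatives stayed within the interval or within 1.5 times the count, 80 moved and 3 reversed. For the sums of the core list, whose alternatives were chosen after seeing the data, 87 stayed, 40 moved and 4 reversed. At a resolution of 0.6 no cluster was named Ly6C-high monocyte, so that class has no value there.

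The member ratio reversed for intermediate monocytes with interferon genes allowed as features (0.904), for dendritic cells without Ifitm3 and Bst2 (1.05) and for Ly6C-high monocytes in the cluster led by Plac8 alone (0.951). The core ratio reversed for dendritic cells without the highest 1% of cells (0.909), for macrophages without the cluster led by Gpnmb (1.04) or in the clusters led by Lyz1 and Folr2 alone (1.06), and for T cells in the cluster led by Dapl1 alone (0.924). The cause was not tested for these or for the values that follow.

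The member ratio moved as follows. With a mitochondrial share of at most 5% it was 1.22 in Ly6C-high monocytes, 1.24 in intermediate monocytes, 0.532 in macrophages, 2.32 in neutrophils, 1.25 in T cells and 2.72 in B cells. At most 2% gave 1.24, 1.26, 0.625, 2.42, 1.45 and 2.94 in the same order, and 0.966 in dendritic cells. At least 500 genes gave 1.22 in Ly6C-high monocytes, 1.22 in intermediate monocytes and 0.573 in macrophages. Leaving out doublets gave 1.19 in Ly6C-high monocytes, 1.09 in intermediate monocytes and 2.35 in B cells. Interferon genes as features gave 1.29 in Ly6C-high monocytes. A resolution of 2 gave 1.27 in intermediate monocytes, of which 53 and 48 cells joined a cluster named macrophage there, and 0.573 in macrophages. Merging without integration gave 1.36 in Ly6C-high monocytes, 1.28 in intermediate monocytes and 0.638 in macrophages. Scaling by the median ratio gave 1.1 in Ly6C-high, 1.09 in intermediate and 1.19 in Ly6C-low monocytes, 0.698 in macrophages, 1.77 in neutrophils and 1.16 in T cells. Thinning gave 1.06 in intermediate and 1.16 in Ly6C-low monocytes, 2.04 in neutrophils, 1.25 in T cells, 1.12 in NK cells and 1.76 in B cells. Without Ifitm3 and Bst2 it was 1.35 in Ly6C-high, 1.53 in intermediate and 1.48 in Ly6C-low monocytes, 0.885 in macrophages, 2.65 in neutrophils and 2.39 in B cells. The mean of per-cell CPM gave 0.81 in dendritic cells and 1.62 in B cells, and leaving out the highest 1% of cells gave 0.811 and 1.25.

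Further alternatives, all for the intermediate monocytes and all for the core sums were chosen after seeing the data. Macrophages were at 0.909 without the cluster led by Gpnmb and 0.968 in the clusters led by Lyz1 and Folr2. Ly6C-high monocytes were at 1.23 in the cluster led by Chil3, T cells at 1.16 in the cluster led by Dapl1 and 1.16 in that led by Cxcr6, neutrophils at 2.4 in the cluster led by Retnlg, 1.77 in that led by Lcn2 and 1.99 scaled without S100a8 and S100a9, Ly6C-low monocytes at 1.03 in the cluster led by Tcf7l2 (core ratio 1.14), and B cells at 1.19 without the cell of highest core count.

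The share of Ly6C-high monocytes past the threshold was 13.8% and 25.5% at 3 core UMIs and 1.8% and 3.36% at 8. Members past the fold in either direction are given with those higher and lower, and then the shares of all genes higher and lower at the same setting. At a fold of 2 they numbered 4 in Ly6C-high monocytes (4 and 0, 3.79% and 1.84%), 9 in intermediate monocytes (9 and 0, 5.55% and 3.56%), 8 in Ly6C-low monocytes (8 and 0, 4.1% and 1.84%), 3 in macrophages (2 and 1, 9.03% and 4.3%), 1 in dendritic cells (1 and 0, 6.45% and 2.01%), 6 in T cells (5 and 1, 5.7% and 1.77%), 4 in NK cells (4 and 0, 2.98% and 1.09%) and 6 in B cells (6 and 0, 5.32% and 3.62%). With at least 50 UMIs per gene they numbered 6 in Ly6C-low monocytes (6 and 0, 8.92% and 2.75%), 1 in dendritic cells (1 and 0, 12.2% and 3.9%), 19 in neutrophils (19 and 0, 21.5% and 3.36%), 10 in T cells (9 and 1, 15% and 2.58%), 5 in NK cells (5 and 0, 5.75% and 2.21%) and 4 in B cells (3 and 1, 10.9% and 5.04%). With at least 1 UMI they numbered 28 in Ly6C-low monocytes (25 and 3, 27% and 19.6%), 18 in dendritic cells (13 and 5, 30.5% and 17.3%), 22 in NK cells (19 and 3, 22.7% and 16.5%) and 31 in B cells (27 and 4, 29% and 29%). Scaling by the median ratio gave 10 in T cells (9 and 1, 10.3% and 9.92%).

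The limits are those of 1 library per group. Differences between mice were not measured, and effects of tamoxifen, of the deletion and of the library cannot be told apart. Depth limits members with few UMIs, as in dendritic and B cells, where 22 and 20 members reached 20 UMIs. Clusters were formed from the same counts as the levels.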
